A study of Rattus norvegicus with 36 samples.

Results

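*Cdkn1a*, *Mdm2*, *Ccng1*, *Btg2*, *Gadd45a*, *Plk3* and *Zmat3*, 7 genes that p53 switches on after DNA damage to arrest the cell cycle or to feed back on p53, were followed in the thyroid glands of 36 adult male Sprague Dawley rats given 131I. They were measured by every probe of the array whose transcript accession belongs to one of these symbols, which gave 10 probes of 30367, for 7 of the 15154 genes that had a probe. *Cdkn1a*, *Mdm2* and *Zmat3* had 2 probes each and the other 4 genes had 1. The rats were healthy, ate standard chow and were kept 4 to a cage. Whether a cage held rats of 1 group is not given in the sources used here, and if it did, cage and activity cannot be told apart. Each rat gave 1 thyroid and 1 single-colour array. Groups of 4 rats were injected in a tail vein with saline that held 131I, a beta emitter that follicular cells take up through the sodium iodide symporter, at 4700, 1300, 760, 340, 260, 170, 88 or 9 kBq, or with saline alone (0 kBq, the controls). All thyroids were taken 24 h later. The groups were injected in rising order of activity and the controls last, so activity and order of injection cannot be told apart among the irradiated groups.

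The transcription factor p53 is stabilised when DNA is broken and binds to paired copies of a short motif near its target genes. *Cdkn1a* encodes p21, the inhibitor of cyclin-dependent kinases that holds damaged cells in arrest, and *Btg2*, *Gadd45a* and *Plk3* are further targets linked to growth arrest and the stress response. *Mdm2* encodes the ubiquitin ligase that degrades p53 and so closes a feedback loop, to which cyclin G1 (*Ccng1*) also contributes, and *Zmat3* encodes an RNA-binding zinc finger protein. *Cdkn1a* and *Mdm2* are among the genes most often used to read p53 activity in irradiated tissue.

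The promoters of 4 members are printed because their transcripts behaved differently: *Mdm2* rose with the activity in all rats and *Cdkn1a* in those with follicular signal, whereas *Ccng1* and *Gadd45a* passed no adjusted test of it. Each window runs 5′ to 3′ on the strand of the gene, from 250 bases before to 50 bases after the transcript start, and was taken from RefSeq (GRCr8). It lies at chr20:7150682-7150981 (plus strand) for *Cdkn1a*, at chr7:55200742-55201041 (minus strand) for *Mdm2*, at chr10:25684827-25685126 (minus strand) for *Ccng1* and at chr4:97486750-97487049 (minus strand) for *Gadd45a*. Capitals mark exact matches to the p53 half-site consensus, a motif of 10 bases that equals its own reverse complement.
Cdkn1a: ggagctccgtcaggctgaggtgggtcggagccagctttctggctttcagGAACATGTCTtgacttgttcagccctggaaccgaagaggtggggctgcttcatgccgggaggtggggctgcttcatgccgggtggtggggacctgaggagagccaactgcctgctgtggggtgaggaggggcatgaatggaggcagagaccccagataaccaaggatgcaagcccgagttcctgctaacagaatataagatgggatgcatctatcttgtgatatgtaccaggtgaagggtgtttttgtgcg
Mdm2: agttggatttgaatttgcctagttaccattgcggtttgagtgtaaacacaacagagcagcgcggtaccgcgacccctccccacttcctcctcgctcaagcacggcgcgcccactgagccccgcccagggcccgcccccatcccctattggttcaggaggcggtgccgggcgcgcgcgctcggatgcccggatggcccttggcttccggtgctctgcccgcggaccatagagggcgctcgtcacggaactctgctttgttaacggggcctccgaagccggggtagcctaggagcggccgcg
Ccng1: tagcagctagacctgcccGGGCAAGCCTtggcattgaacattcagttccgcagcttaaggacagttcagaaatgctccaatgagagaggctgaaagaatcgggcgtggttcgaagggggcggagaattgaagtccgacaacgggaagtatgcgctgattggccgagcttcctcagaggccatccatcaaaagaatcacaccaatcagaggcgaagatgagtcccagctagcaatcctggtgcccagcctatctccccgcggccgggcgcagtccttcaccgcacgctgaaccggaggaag
Gadd45a: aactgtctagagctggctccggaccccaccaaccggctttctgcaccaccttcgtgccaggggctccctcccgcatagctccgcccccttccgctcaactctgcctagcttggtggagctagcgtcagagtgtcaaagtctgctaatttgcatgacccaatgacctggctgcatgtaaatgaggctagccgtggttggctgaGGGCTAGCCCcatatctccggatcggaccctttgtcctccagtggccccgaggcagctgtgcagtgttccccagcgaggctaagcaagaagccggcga
A match began 201 bases before the start of *Cdkn1a*, 232 bases before that of *Ccng1* and 48 bases before that of *Gadd45a*. The windows of *Mdm2*, *Btg2* and *Plk3* held none, so that 3 of the 6 windows found held one, and *Zmat3* had no entry. Over all 33469 rat promoter windows of this length, 7.98% held at least 1 match. A match is a description of these letters, and its absence says nothing of p53 at other positions of the gene.

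All levels are log2 processed intensities relative to the 75th percentile of the array, which is 0, and a level of 1 probe is not comparable with that of another. The arrays carried 62976 spots, the 75th percentile lay between 1564 and 4288 on the linear scale, and 60% to 88.4% of the probes lay well above background. The number of arrays limits the precision, and the p-values of the fits set a difference or slope against the spread between rats. A part of the glands gave little thyroid signal. The follicular score, the mean level of 14 follicular marker genes such as *Tg* and *Slc5a5*, was more than 3 log2 units below the control median of 1.30 in 17 rats, between -5.44 and -2.71, and lay between -1.34 and 2.21 in the other 19. Of the 14 markers, 13 were well above background in all 19 rats and 2 in none of the 17. The rats of low score were rat 3 of the controls, rats 1, 3 and 4 at 9 kBq, rats 1 and 2 at 88 kBq, rats 3 and 4 at 170 kBq and at 260 kBq, rats 1, 2 and 3 at 340 kBq, rat 2 at 760 kBq, rats 1 and 2 at 1300 kBq and rat 3 at 4700 kBq. Fast muscle markers (7 of 7 listed genes) had a mean level above 2 on 34 of the 36 arrays, and squamous epithelium markers (6 of 7 listed genes with a probe, such as *Krt5* and *Krt13*) had one above 0 on 13 arrays, 10 of them of low follicular score. In bulk RNA, fewer cells of a type and less RNA per cell cannot be told apart. The arrays came from 5 slides that held 4 to 6 groups each and were scanned on 2 days.

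*Mdm2* rose with the injected activity over all 36 rats, in which it had the smallest p of the members. On its leading probe (A_44_P634946, the one of higher mean level) the control rats 1 to 4 had levels of -0.41, -0.07, 0.38 and -0.47. The 4 rats at 1300 kBq had 1.06, 0.83, 0.58 and 0.86, and those at 4700 kBq had 1.30, 1.67, 1.11 and 0.85. Every rat of both groups lay above all controls, including the 3 rats of low follicular signal among them. From 9 to 760 kBq the levels spanned -0.35 to 0.74 and overlapped those of the controls in every group. In the order of the group means, 1300 kBq lay above the next lower group (340 kBq) by 0.55 and 4700 kBq above 1300 kBq by 0.40, each more than the larger SD of the pair. The other 6 neighbouring pairs of means differed by less. These means (± SD, n = 4) were -0.14 ± 0.39 in the controls, -0.01 ± 0.29 at 9 kBq, -0.03 ± 0.33 at 88 kBq, 0.02 ± 0.32 at 170 kBq and 0.00 ± 0.27 at 260 kBq. They went on at 0.28 ± 0.27 at 340 kBq, 0.23 ± 0.39 at 760 kBq, 0.83 ± 0.20 at 1300 kBq and 1.23 ± 0.34 at 4700 kBq.

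The second *Mdm2* probe (A_43_P16885) gave the same picture at a lower intensity. The controls had -2.43, -2.41, -2.21 and -3.02, the 1300 kBq rats -1.55, -1.98, -1.80 and -1.52, and the 4700 kBq rats -1.24, -1.12, -1.36 and -1.58. Here the rats at 340 kBq, with -2.06, -2.11, -2.21 and -1.67, were also all above the controls. The lowest of them equalled the highest control when rounded.

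Against the controls, *Mdm2* was higher at 4700 kBq by 1.38 (log2, standard error 0.24) on the leading probe and by 1.19 (standard error 0.21) on the second, a 2.59-fold and a 2.28-fold difference. The adjusted p was 0.0332 for both (limma, Benjamini-Hochberg over all probes), short of the limit of 0.01 and a 1.5-fold change that the study used. At these limits 0 of the 10 probes, and 0% of all 30367, were called at any activity in this fit. At an adjusted p under 0.05, the *Mdm2* probes were 2 of 6 called at 4700 kBq, 0.0198% of all probes. Among all probes they held ranks 1 and 3 by p. At an unadjusted p under 0.05 the count of member probes was 0 at 9, 88, 170 and 260 kBq (3.22%, 3.36%, 2.36% and 1.12% of all probes), 3 at 340 kBq (13.7%), 3 at 760 kBq (1.64%), 4 at 1300 kBq (4.17%) and 3 at 4700 kBq (1.66%). At 1300 kBq the differences were 0.97 (standard error 0.24) and 0.80 (standard error 0.21), with an adjusted p of 0.84 for both. For the leading probe, the exact permutation test of 4 against 4 rats gave 0.0286 at both activities, unadjusted and the smallest p this design allows. The median probe was higher than in the controls by 0.22 at 1300 kBq and by 0.09 at 4700 kBq. Within scan day 1 (2 rats at 4700 kBq and 3 controls) the leading probe differed by 1.03, and within scan day 2 (2 rats and 1 control) by 1.90. Leaving out single rats moved its adjusted p between 0.0244 and 0.24. The score of erythroid genes (3 of 4 listed genes with a probe) lay between 1.17 and 3.61 at 4700 kBq and between -0.72 and 0.38 in the controls, and its part in the *Mdm2* difference was not tested.

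In the fit on the rank of the activity, from 0 for the controls to 8 for 4700 kBq, *Mdm2* rose by 0.147 per rank (standard error 0.024) on the leading probe and by 0.119 (standard error 0.0195) on the second. Both had an adjusted p of 0.00713 and were the only probes called by the trend at an adjusted p under 0.01, 2 of 30367 or 0.00659%. Over the 9 group means the leading probe had a Pearson's r of 0.867 with the rank, for which exact permutation of the means gave a two-sided, unadjusted p of 9.92e-05, 1 of 7 such tests, and a Spearman's rho of 0.95. The slopes kept their sign and lay between 0.132 and 0.160 and between 0.111 and 0.125 when single rats were left out, but the call was lost for both probes in 22 of these 36 fits (highest adjusted p = 0.0367, without rat 2 at 4700 kBq). It was also lost for both with slide as a block (adjusted p = 0.0247 and 0.0181), with rat number as a block (0.0184 for both), after median centring (0.0293 for both), after quantile normalization (0.0137 and 0.0138) and in the authors' table (0.0148 and 0.0153). Without the 4700 kBq group the slopes were 0.106 and 0.092 and neither was called (adjusted p = 0.743 for both). Within scan day 1 the slope of the leading probe was 0.145 and within scan day 2 it was 0.150, with an adjusted p of 0.662 and 1. On the order of injection, in which the controls come last, its slope was 0.085 (adjusted p = 0.45).

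**Figure D1:**
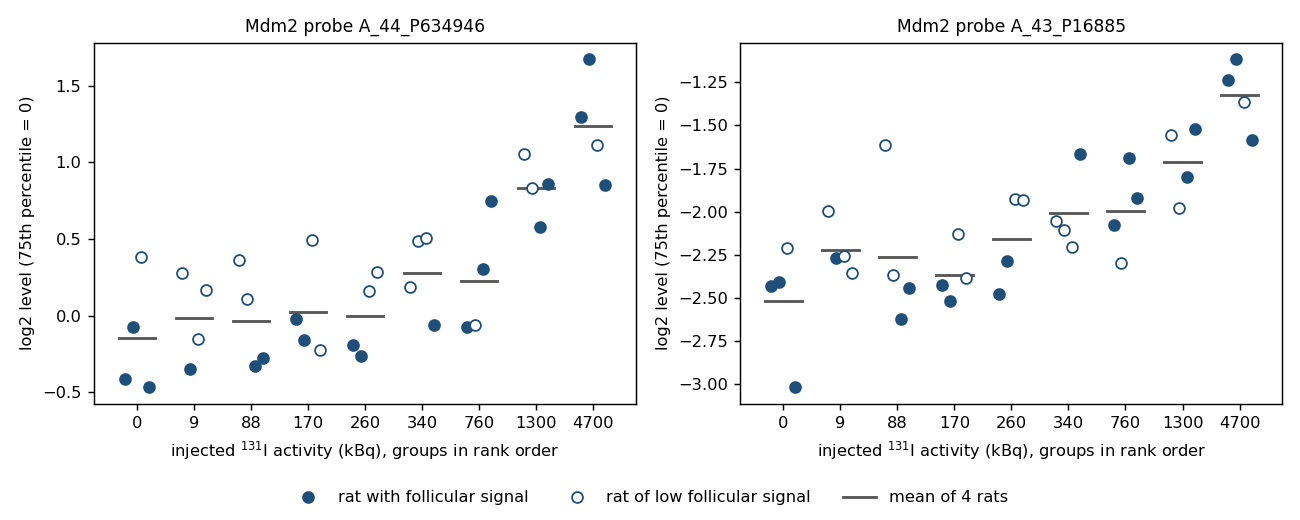
Log2 level of both *Mdm2* probes (vertical axes, 75th percentile of the array at 0, each on its own scale) in the 36 rats, by injected activity in kBq (horizontal axes, groups in rank order). Filled points are rats with follicular signal, open points rats of low follicular signal and bars the means of 4 rats; on the left all 8 rats at 1300 and 4700 kBq lie above the 4 controls.

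Set against the mean of the other 7 irradiated groups, a comparison without the controls, *Mdm2* was higher at 4700 kBq by 1.05 (standard error 0.18, adjusted p = 0.00807) on the leading probe and by 0.78 (standard error 0.16, adjusted p = 0.0865) on the second. The leading probe was thus 1 of 10 probes called (0.0329% of all). That call was lost in 25 of the 36 fits that left out a single rat (adjusted p between 0.00429 and 0.236), with median centring (0.0209), with slide (0.0149) or rat number (0.0223) as a block, and without the rats of low follicular signal (0.0658). The clock genes *Dbp* and *Bmal1*, which also follow the time of day, were among those 10: the difference was 2.27 for *Dbp* (adjusted p = 0.00429) and -1.85 for *Bmal1* (adjusted p = 0.000382). Over the 11 clock genes the mean level was between -1.69 and -0.86 at 4700 kBq, between -1.99 and -1.27 in the controls and between -3.11 and -1.23 in the other irradiated groups. The tissue lists also differed in this comparison, with a median difference of 2.19 for the 14 follicular genes, 2.06 for the 6 C-cell genes, 3.35 for the 3 parathyroid genes, -4.22 for the 6 squamous genes, -2.55 for the 5 cartilage genes and -1.71 for the 6 slow muscle genes, beside -0.05 for all probes. The erythroid genes had 1.11, and 1 of these 3 genes was also among those 10 probes. The part of the clock genes and of other tissue in the *Mdm2* result was not tested.

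On its leading probe *Cdkn1a* rose with the activity in the rats with follicular signal, whereas over all 36 rats its trend was not called in the main fit. With array weights the trend of its leading probe over all rats was called (limma, slope 0.344, adjusted p = 0.00819). Its leading probe (A_44_P914438, a single spot) lay at 0.18, 0.76, 3.25 and 1.61 in the controls and at 4.92, 4.99, 0.99 and 4.55 at 4700 kBq. The high control was rat 3 and the low rat at 4700 kBq was also rat 3, and both had low follicular signal. The difference of the group means, 2.41 (standard error 0.82), therefore came with an SD of 1.92 at 4700 kBq and 1.34 in the controls (n = 4 each), and its adjusted p was 1 (unadjusted p = 0.00628). The exact permutation test gave 0.0857. At the same limits the study itself reported *Cdkn1a* as regulated, in its highest dose group only. Its qPCR of that group also differed from the controls, and it described the correlation of qPCR and array between animals as weak. Within scan day 1 the difference was 0.90 and within scan day 2 it was 4.78, and leaving out single rats moved it between 1.99 and 3.37. In the trend over all 36 rats the slope was 0.262 per rank (standard error 0.07, adjusted p = 0.543), although the 9 group means had a Pearson's r of 0.918 with the rank (exact permutation, two-sided, unadjusted p = 0.000562) and a Spearman's rho of 0.95. The means (± SD, n = 4) were 1.45 ± 1.34 in the controls, 2.52 ± 1.43 at 9 kBq, 1.66 ± 1.31 at 88 kBq, 2.49 ± 1.24 at 170 kBq and 2.79 ± 0.91 at 260 kBq. They reached 3.14 ± 0.71 at 340 kBq, 3.22 ± 0.34 at 760 kBq, 3.28 ± 0.83 at 1300 kBq and 3.86 ± 1.92 at 4700 kBq, and no neighbouring pair differed by more than the larger SD.

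In the 19 rats with follicular signal the same probe rose steadily. The 3 controls among them had 0.18, 0.76 and 1.61, the rat at 9 kBq had 0.40, and those at 88 kBq had 0.97 and 1.06. At 170 kBq the levels were 1.07 and 1.81, at 260 kBq 2.14 and 1.89, and at 340 kBq 2.11. At 760 kBq they reached 2.78, 3.14 and 3.44, at 1300 kBq 3.99 and 3.97, and at 4700 kBq 4.92, 4.99 and 4.55. All 8 rats from 760 kBq upwards lay above all 11 rats of lower activity or none, and the 3 highest activities did not overlap one another. The slope was 0.514 per rank (standard error 0.043, adjusted p = 7.91e-06), the smallest p of all 30367 probes. In these rats 3 of the 10 member probes were called, this one and both of *Mdm2* (slopes 0.186 and 0.157, adjusted p = 0.00956 and 0.00388), of 15 probes or 0.0494% in all. The *Mdm2* calls in these rats were lost with slide as a block (adjusted p = 0.0585 and 0.0376), rat number as a block (0.0228 and 0.0159), median centring (0.0554 and 0.0166) or irradiated groups alone (0.0246 and 0.0254), and in 16 and 6 of the 36 fits that left out a single rat. Both were also lost without the 4700 kBq rats (0.514 and 0.412). The leading *Mdm2* probe alone was lost after quantile normalization and in the authors' table (limma, adjusted p = 0.0158 in each). Without the 4700 kBq rats the *Cdkn1a* slope was 0.447 (adjusted p = 0.00406). Within scan day 1 it was 0.459 and within scan day 2 it was 0.595 (adjusted p = 0.054 and 0.0699), and on the order of injection it was 0.265 (adjusted p = 0.986). With activity in kBq or its log10 in place of the rank, *Cdkn1a* was not called (limma, adjusted p = 0.0112 and 0.0145). The 4700 kBq rats with follicular signal exceeded the controls with follicular signal by 3.97 (standard error 0.33, adjusted p = 0.000609).

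The 17 rats of low follicular signal showed no such course. Of these, 15 had levels between 2.35 and 3.75, the control rat among them, and rat 1 at 88 kBq and rat 3 at 4700 kBq had 0.99. The lowest of the 15 were the rats at 1300 kBq, with 2.35 and 2.81. The slope was -0.098 per rank (standard error 0.083, unadjusted p = 0.256). All 10 rats of low follicular signal with a squamous score above 0 were among those 15, as were 5 of the 7 with a score below 0. These 10 were all at 760 kBq or below, whereas the squamous score was -4.82 and -4.41 at 1300 kBq and -4.69 at 4700 kBq. Squamous signal and activity can thus not be fully told apart in the 17 rats, and the part of other tissue in these levels was not tested. A term for the product of activity rank and follicular score, fitted to all 36 arrays, tests whether the slope depends on the follicular signal. For *Cdkn1a* this term was 0.100 (standard error 0.015, adjusted p = 0.000769), with 10 probes called in all (0.0329%) and no other member among them. For the *Mdm2* probes it was 0.017 on each (adjusted p = 0.571).

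**Figure D2:**
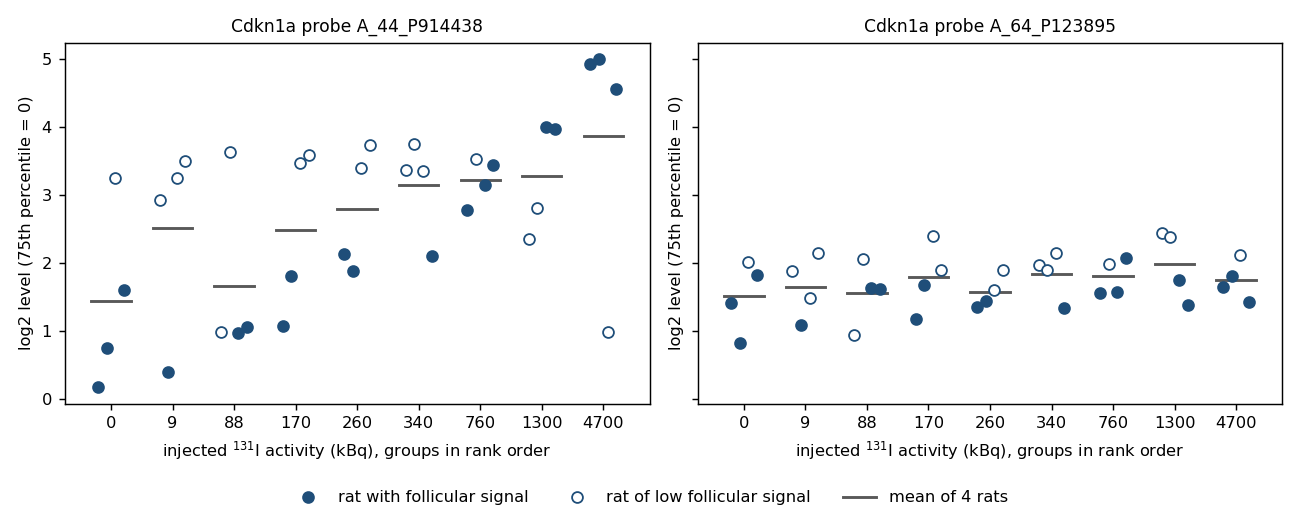
Log2 level of both *Cdkn1a* probes (vertical axes on 1 scale, 75th percentile of the array at 0) in the 36 rats, by injected activity in kBq (horizontal axes, groups in rank order). Filled points are rats with follicular signal, open points rats of low follicular signal and bars the means of 4 rats; the filled points climb from 0.18 to 4.99 on the left, whereas all points on the right lie between 0.82 and 2.44.

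The second *Cdkn1a* probe (A_64_P123895) carries the same transcript accession and had no called trend with the activity. Its levels ranged from 0.82 to 2.44, and the 4700 kBq group, with 1.65, 1.82, 2.11 and 1.43, overlapped the controls, with 1.41, 0.82, 2.01 and 1.82. The slope was 0.042 per rank in all rats (standard error 0.025, adjusted p = 0.709) and 0.041 in the 19 rats with follicular signal (standard error 0.024, adjusted p = 0.866). Over the 36 arrays the *Cdkn1a* probes had a Pearson's r of 0.448 and their difference had an SD of 1.17 log2 units. For the *Mdm2* probes r was 0.854 and the SD of the difference 0.27, and for the *Zmat3* probes they were 0.13 and 0.81. These correlations describe probes that share array and RNA. Where on the transcript the probes lie was not analysed here, and the difference between their slopes was not tested.

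*Zmat3* passed no adjusted test of the activity. On the leading probe (A_44_P1019245) the controls had -0.65, -1.17, -0.90 and -0.75 and the 760 kBq rats -0.40, -0.41, 0.46 and 0.31, all above the controls. At 4700 kBq the rats had 0.16, 0.99, -2.16 and 0.41, with rat 3, of low follicular signal, below all other rats of the study. The slope was 0.049 per rank over 36 rats (standard error 0.044, adjusted p = 0.794), 0.142 in the 19 rats with follicular signal (standard error 0.031, adjusted p = 0.164) and -0.130 in the 17 others (standard error 0.055, unadjusted p = 0.0288). The product with the follicular score was 0.045 (standard error 0.010, adjusted p = 0.0958), rank 17 of all probes by p and short of the limit. The second probe (A_64_P115928) was dim, at -6.35 to -3.35, and not well above background on 2 arrays. It was higher than in the controls by 0.52 to 1.26 in every irradiated group, with all 4 rats above all controls at 340, 760 and 1300 kBq, and none of these differences was called (lowest adjusted p = 0.171). The 1.26, at 340 kBq, was raised by rat 4, with -3.35 beside -5.66 to -5.02 in the other rats. The array of that rat had the highest share of probes well above background, 88.4%. The slope of this probe, 0.076 per rank, was not called either (adjusted p = 0.663). Of the 10 member probes, 3 at 340 kBq, 2 at 760 kBq, 3 at 1300 kBq and 2 at 4700 kBq had all 4 rats above all controls, beside 4.04%, 1.39%, 1.07% and 0.715% of all probes. At 9, 88, 170 and 260 kBq the count was 0, beside 1.49%, 1.67%, 1% and 0.823%.

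**Figure D3:**
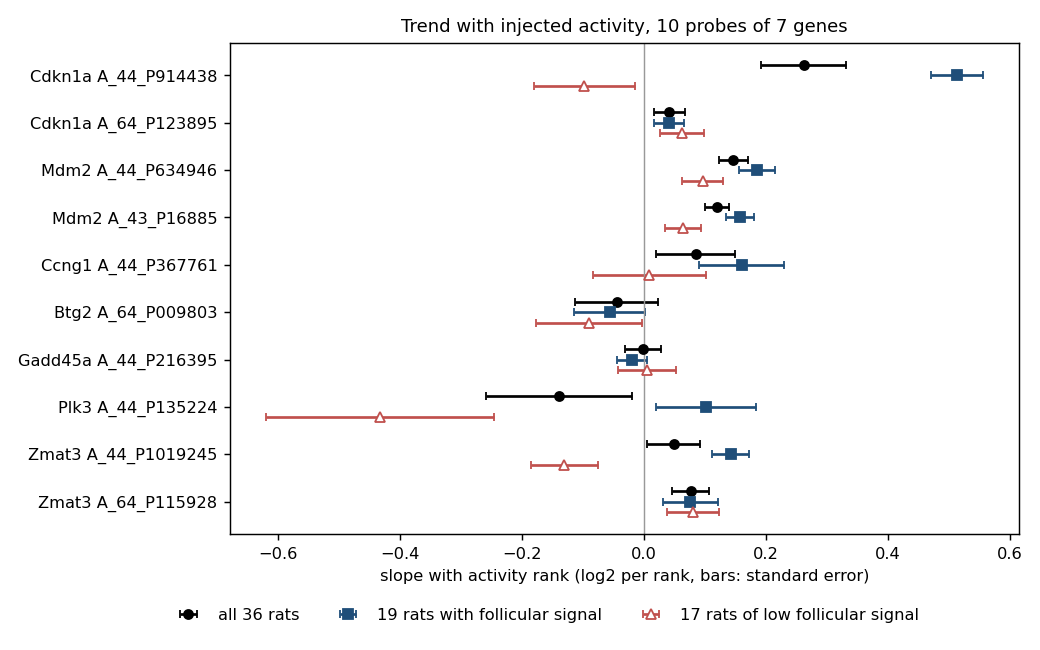
Slope of each of the 10 probes with the rank of the injected activity (horizontal axis, log2 per rank, bars for the standard error) in all 36 rats (circles), in the 19 rats with follicular signal (squares) and in the 17 of low follicular signal (open triangles). The leading *Cdkn1a* probe has slopes of 0.262, 0.514 and -0.098, and both *Mdm2* probes lie above 0 in all 3 sets of rats.

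The other 4 genes passed no adjusted test of the activity. *Ccng1* (A_44_P367761), the cyclin G1 gene, ranged from 0.14 to 4.94 over the 36 rats, with 3.02, 3.20, 3.40 and 1.34 in the controls and 3.43, 3.13, 4.37 and 3.29 at 4700 kBq, groups that overlapped. At 340 kBq its rats, with 3.50, 3.75, 4.20 and 3.52, all lay above the controls (difference 1.01, standard error 0.76, adjusted p = 0.55; median probe 0.31). Its slope was 0.085 per rank (standard error 0.065, adjusted p = 0.761) and 0.160 in the 19 rats with follicular signal (standard error 0.069, adjusted p = 0.713). *Btg2* (A_64_P009803), an antiproliferative gene of the immediate early kind, had 1.58, 2.26, -0.58 and 1.69 in the controls and 1.59, 1.98, -0.82 and 1.43 at 4700 kBq. In both groups the low rat was rat 3, of low follicular signal. Its slope was -0.045 (standard error 0.068, adjusted p = 0.875). *Gadd45a* (A_44_P216395), whose product acts in growth arrest and stress signalling, had 1.22, 0.90, 0.83 and 1.01 in the controls and 1.17, 1.13, 0.10 and 0.62 at 4700 kBq. Its slope was -0.001 (standard error 0.030, adjusted p = 0.995). *Plk3* (A_44_P135224), a stress-responsive polo-like kinase, had -4.65, -4.74, -1.58 and -4.89 in the controls and -5.01, -5.05, -5.39 and -4.18 at 4700 kBq, with a slope of -0.139 (standard error 0.119, adjusted p = 0.786). The group means ran from 2.58 ± 1.79 (9 kBq) to 3.74 ± 0.33 (340 kBq) for *Ccng1*, from -0.06 ± 0.87 (340 kBq) to 1.24 ± 1.25 (controls) for *Btg2*, from 0.46 ± 0.37 (340 kBq) to 0.99 ± 0.17 (controls) for *Gadd45a* and from -4.91 ± 0.51 (4700 kBq) to -2.24 ± 2.49 (9 kBq) for *Plk3* (SD, n = 4). No neighbouring pair of these means differed by more than the larger SD of the pair.

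The relation to the follicular signal was tested separately. With 1 mean per group and the follicular score as covariate, 6 of the 10 member probes were called (adjusted p under 0.01), beside 42.5% of all probes, so the share is near the background. Per unit of the score, *Btg2* was higher by 0.273 (standard error 0.046, adjusted p = 1.19e-05), the leading *Zmat3* probe by 0.145 (standard error 0.035, adjusted p = 0.000823) and *Gadd45a* by 0.096 (standard error 0.022, adjusted p = 0.000596). *Plk3* had a coefficient of -0.353 (standard error 0.097, adjusted p = 0.00289), *Ccng1* of -0.182 (standard error 0.057, adjusted p = 0.00837, and 0.0661 after quantile normalization) and the second *Cdkn1a* probe of -0.083 (standard error 0.021, adjusted p = 0.00128). The first 3 were thus higher where the thyroid markers were high, and the other 3 lower. The *Mdm2* probes (-0.044 and -0.013, adjusted p = 0.0498 and 0.572), the leading *Cdkn1a* probe (-0.126, adjusted p = 0.124, but -0.200 and 0.0022 without rat 3 at 4700 kBq) and the second *Zmat3* probe (0.018, adjusted p = 0.619) were not called.

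In the 17 rats of low follicular signal, *Btg2* had a median of -0.23 (range -1.41 to 2.63), against 1.41 (range -0.51 to 2.96) in the other 19. *Gadd45a* had medians of 0.59 and 1.09, *Ccng1* of 3.50 and 2.84 and the leading *Zmat3* probe of -0.90 and 0.00 in the same order. The *Zmat3* level of every one of the 17 lay below the median of the 19. In a fit on the squamous score within groups, 2 of the 10 member probes were called, *Plk3* and *Gadd45a*, beside 13.4% of all probes. On the 13 arrays with a squamous score above 0 the *Plk3* level was -1.35 in the median (range -4.25 to 0.24), and on the other 23 it was -4.89 (range -6.43 to -3.78). Within groups *Plk3* was higher by 0.417 per unit of the squamous score (standard error 0.026, adjusted p = 1.02e-13) and *Gadd45a* lower, with a coefficient of -0.070 (standard error 0.016, adjusted p = 0.00148). The squamous score lay between -5.06 and -2.94 at 4700 kBq and between -3.84 and 4.30 in the controls, and its part in the *Plk3* difference between these groups was not tested.

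**Figure D4:**
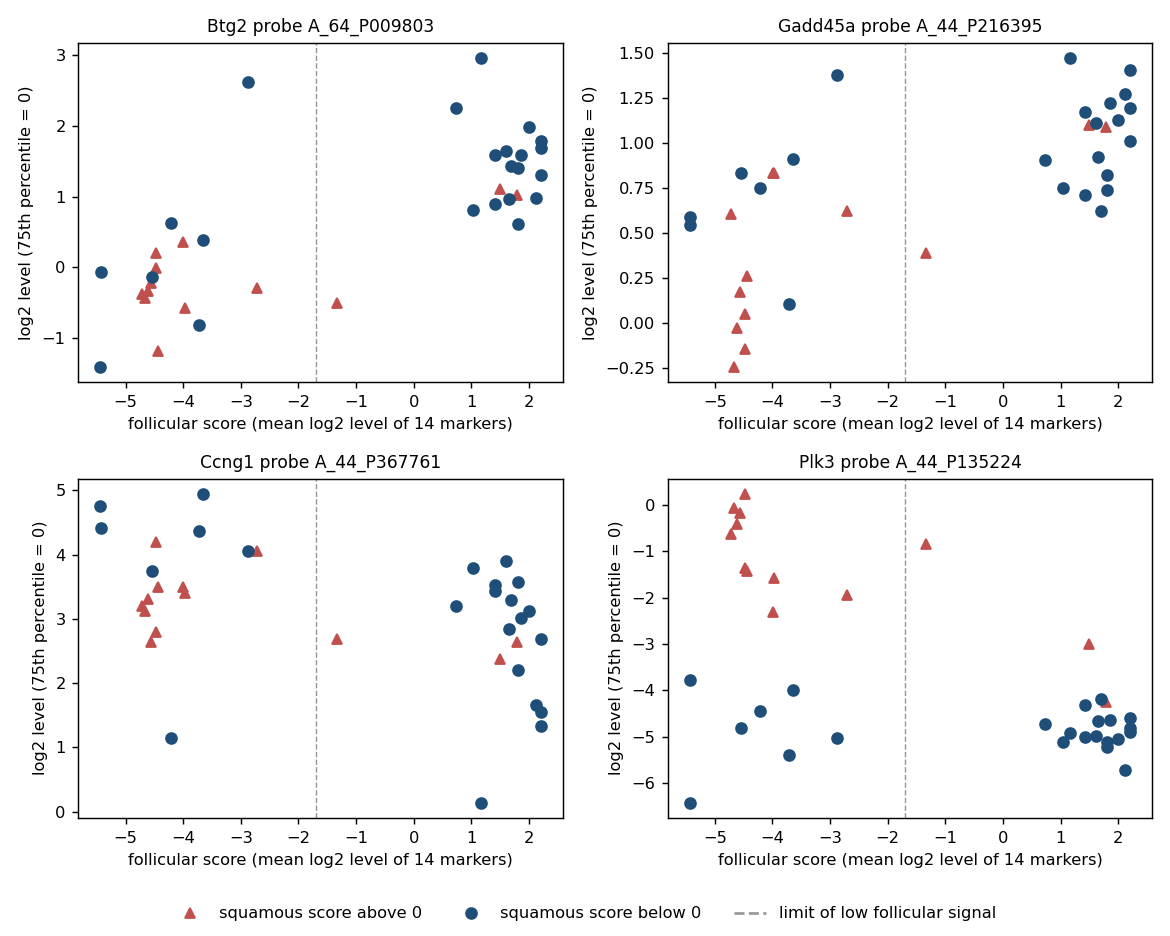
Log2 level of *Btg2*, *Gadd45a*, *Ccng1* and *Plk3* (vertical axes, 75th percentile of the array at 0, each on its own scale) against the follicular score of the array (horizontal axes, mean log2 level of 14 markers) in 36 rats. Triangles mark the 13 arrays with a squamous score above 0 and the dashed line the limit of low follicular signal at -1.70; *Plk3* has a median of -1.35 in the triangles and of -4.89 in the circles.

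Other genes of the p53 pathway were described by lists. Of 14 listed regulators of p53, 11 had a probe, and 0 of these passed at an adjusted p under 0.05 in the trend, with 0 also at an unadjusted p under 0.05. Of 31 listed further targets, 22 had a probe. In the trend over all rats 0 of the 22 passed at an adjusted p under 0.05, while 7 were higher and 1 lower at an unadjusted p under 0.05, beside 4.97% and 2.55% of all probes. Their median slope was 0.052 per rank and that of all probes 0.016. In the 19 rats with follicular signal 2 of the 22 were called (adjusted p under 0.01), *Aen*, an exonuclease gene, and *Gdf15*, which encodes a stress-induced cytokine. *Aen* lay between 0.53 and 1.03 in the controls and at 3.08, 3.46, 1.30 and 3.26 at 4700 kBq, all above the controls. Its slope was 0.185 per rank in all rats (adjusted p = 0.0623) and 0.292 in the 19 (standard error 0.030, adjusted p = 8.5e-05). *Gdf15* lay at -1.64, -2.88, -4.41 and -1.07 in the controls and at 2.71, 4.08, -4.79 and 3.75 at 4700 kBq, with a slope of 0.701 in the 19 (standard error 0.093, adjusted p = 0.00165). In the 17 rats of low follicular signal *Gdf15* stayed between -6.85 and -3.58. *Ei24* and *Rrm2b*, which encodes a ribonucleotide reductase subunit, had the next smallest p in the trend over all rats, with slopes of 0.053 and 0.0755 (adjusted p = 0.663 for both). At 4700 kBq against the controls *Aen*, *Rrm2b* and *Ei24* also had the smallest p of the list, with differences of 1.92 (adjusted p = 0.232), 0.81 and 0.47 (unadjusted p = 0.00528 and 0.0166).

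Among 11 measured family relatives of the members, 1 was called in the 19 rats, *Plk2*, the relative of *Plk3* that is itself a p53 target, with a slope of 0.358 per rank (standard error 0.037, adjusted p = 8.5e-05). *Plk2* lay at -3.75, -4.05, -2.62 and -4.33 in the controls and at -1.21, -1.15, -3.21 and -2.29 at 4700 kBq. Of 13 immediate early genes and of 6 glucocorticoid-responsive genes with a probe, 0 passed at an adjusted p under 0.05 in the trend, with 1 of each at an unadjusted p under 0.05.

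**Figure D5:**
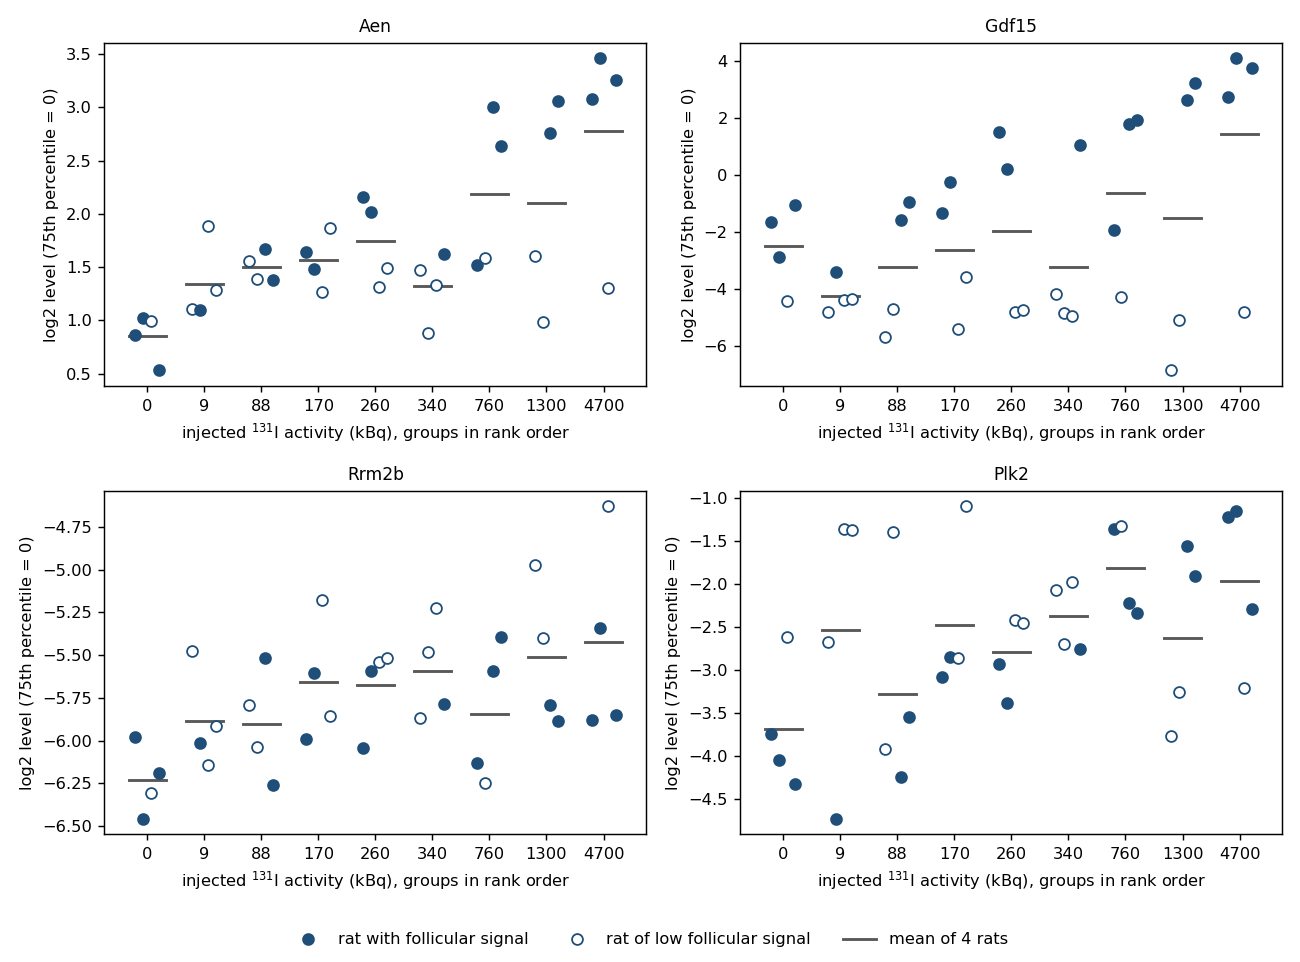
Log2 level of *Aen*, *Gdf15*, *Rrm2b* and *Plk2* (vertical axes, 75th percentile of the array at 0, each on its own scale) in the 36 rats, by injected activity in kBq (horizontal axes, groups in rank order). Filled points are rats with follicular signal, open points rats of low follicular signal and bars the means of 4 rats; the highest filled points of *Aen* (3.46), *Gdf15* (4.08) and *Plk2* (-1.15) are at 4700 kBq.

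By likeness over the 36 arrays, among 10518 probes that were well above background on every array and had a gene symbol, the leading *Cdkn1a* probe was closest to *Plk2* (Pearson's r = 0.827), *Hapln3* (0.792), *Abcb1b* (0.783), *Ccl2* (0.681) and *Fam43a* (0.639). The leading *Mdm2* probe was closest to *Thyn1* (0.753), *Abcb1b* (0.701), *Ppp1r2* (0.696), *Gnl2* (0.678) and *Usp14* (0.670). *Ccng1* was closest to both probes of *Plcd4* (0.761 and 0.760), *Ppp1r3c* (0.737), *Mllt11* (0.735) and *Rhobtb3* (0.730). *Abcb1b*, a drug efflux pump gene, thus stood in both of the first lists. These values describe likeness over arrays that share the differences in follicular and other tissue signal.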

How the data were processed

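Thyroid RNA of 36 rats was hybridised to Agilent SurePrint G3 Rat 8x60K arrays in 1 colour (Cy3). Per the file headers, Agilent Feature Extraction 10.7.3.1 made the processed intensity values used here, which are background-corrected and were deposited without normalization between arrays. The authors' value table holds the same arrays as linear intensity values that were quantile-normalised (its column medians equal 205.7; Partek is named in the submitters' processing notes without a version), and was used as an alternative only.

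Control spots and outlier spots were left out, spots of a probe were averaged, and the log2 intensity minus the 75th percentile of the array was taken (30367 probes, 99 lacking a value on at least 1 array). Gene symbols came from transcript accessions matched to RefSeq (GRCr8), and 17998 probes (59.3%) had 1 symbol. The leading probe of a gene is the one of highest mean level. Groups came from the labels, with 4 rats each. Differences of the irradiated groups from the controls came from 1 linear model over all 36 arrays (limma 3.58.1, R 4.3.3), with Benjamini-Hochberg adjustment over all probes; calls needed an adjusted p under 0.01 and, between groups, a change of 1.5-fold, the limits of the study, which names no test. The rank of the activity (0 to 8), 4700 kBq against the other irradiated groups, and the follicular score were tested in further fits. Exact permutation tests enumerated every arrangement in Python 3.11.15 with numpy 2.4.6 and are two-sided. Spearman's rho came from scipy 1.17.1. The scripts were tested on simulated data.

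The 7 genes and all gene lists were chosen with earlier results of these data known. Named beyond the members are genes with an adjusted p under 0.05 in any comparison, from the p53, family, immediate early, clock and glucocorticoid lists. The tissue marker lists were outside this rule. Also named are the 3 further p53 targets of smallest p at 4700 kBq and in the trend, and the 5 probes most like *Mdm2*, *Cdkn1a* and *Ccng1*. The product of activity and follicular score, the trend in the 19 rats as a result of its own, the trend in the 17 other rats, the values within scan days and the squamous score were added after seeing the data. Alternatives covered scaling, background correction (normexp, offset 50, on median spot signals), the authors' table, filters, slide and rat number as blocks, array weights, other scales of activity and each rat left out.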

Additional observations from a re-analysis of the deposited data

Results flagged for a closer look

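Of 63 groups of 4 rats looked at (9 groups for each leading probe), 6 (9.52%) held a rat whose gap to the nearest other rat exceeded Dixon's critical share of the range of its group; chance flags about 1 in 20. *Cdkn1a* was 3.62 in rat 2 at 88 kBq, above the others at 0.97 to 1.06, and 0.99 in rat 3 at 4700 kBq, below the others at 4.55 to 4.99. *Btg2* was 2.96 in rat 2 at 9 kBq, above the others at -0.44 to -0.08. *Gadd45a* was -0.14 in rat 4 at 170 kBq, below the others at 0.75 to 0.91. *Plk3* was -1.58 in control rat 3, above the others at -4.89 to -4.65. *Zmat3* was -1.31 in rat 2 at 340 kBq, below the others at -0.55 to -0.42. All of these rats had low follicular signal except rat 2 at 9 kBq, which was the only rat of its group with follicular signal.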

How the results depend on the processing

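All counts here are of the 10 member probes at an adjusted p under 0.01 (limma), and each cause was not tested. Counts over all 30367 probes stand beside them as "in all". Against the controls, 0 probes were called at every activity, and other counts arose only with array weights (4 at 9 kBq of 2354 in all, 3 at 4700 kBq of 26), without the rats of low follicular signal (1 at 340 kBq of 3496 in all, where 1 rat was left, assumed to vary like the other groups, and 1 of 3 at 4700 kBq), and at 4700 kBq with normexp (1 of 3), the follicular covariate (1 of 4) or an adjusted p under 0.05 (2 of 6). The *Mdm2* calls of the trend were at the edge of the limit. The trend count of 2 became 0 after quantile normalization (adjusted p of the leading probe 0.0137), median centring (0.0293), in the authors' table (0.0148), with slide (0.0247) or replicate block (0.0184), on log10 of activity (0.178), on order of injection, without the 4700 kBq group, in the rats of low follicular signal alone, on scan day 1 and on scan day 2, and became 1 of 7 in irradiated groups alone (10 in all on order of injection, and 0 in all under the others); its slope stayed above 0 in all of these. With array weights the trend count was 3, as the leading *Cdkn1a* probe was called too (adjusted p = 0.00819). Without single rats the count ran from 0 to 2. It stayed 2 only without control rat 3, rat 1 at 9 kBq, rats 1 or 2 at 88 kBq, rat 3 at 170 kBq, rats 1, 2 or 3 at 260 kBq, rats 1, 3 or 4 at 340 kBq, rats 1 or 2 at 760 kBq, or rat 1 at 1300 kBq. For 4700 kBq against the other irradiated groups the count of 1 (10 in all) became 0 with median centring, slide or replicate block (8, 3 and 7 in all) and 2 with array weights (160 in all), and without single rats it ran from 0 to 1 (0 in 25 of 36 fits, adjusted p 0.00429 to 0.236).

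In the 19 rats with follicular signal the count of 3 (15 in all, and 10 or fewer in the settings named here) became 1 with median centring, slide block, replicate block, activity on a linear scale, irradiated groups alone or without the 4700 kBq group, and 0 on log10 of activity, order of injection, scan day 1 and scan day 2. The 1 left was the leading *Cdkn1a* probe, except on the linear scale, where it was the leading *Mdm2* probe. The leading *Cdkn1a* probe had an adjusted p of 0.0112 on the linear scale and 0.0145 on log10 of activity (limma). Without single rats it ran from 1 to 3 (1 without control rat 4, rat 4 at 88 or at 1300 kBq, or rats 1, 2 or 4 at 4700 kBq), and *Cdkn1a* was called in all 36 (adjusted p 1.39e-07 to 7.61e-05). The product of activity and follicular score was called for *Cdkn1a* under all 9 alternatives and without each rat (adjusted p 3.52e-05 to 0.00378). Only uncalled values changed sign. Trend slopes were -0.098 for the leading *Cdkn1a* probe in the rats of low follicular signal, -0.050 for *Ccng1* on scan day 2, and 0.022 with array weights, 0.066 per MBq, 0.042 on order of injection and 0.021 on scan day 2 for *Btg2*. For *Gadd45a* they were 0.0066 with median centring, 0.0034 with slide block, 0.017 with array weights, 0.0082 per MBq, 0.024 in irradiated groups, 0.035 on order of injection, 0.0051 in the rats of low follicular signal and 0.0016 on scan day 2. *Plk3* had 0.102 without the rats of low follicular signal, and its difference at 4700 kBq was then 0.015. *Zmat3* had -0.0091 and -0.022 on order of injection (leading and second probe) and -0.130 in the rats of low follicular signal. In the 19 rats *Btg2* had 0.058 per MBq, 0.044 on order of injection and 0.013 on scan day 2, and the second *Zmat3* probe -0.027 on order of injection. The second *Cdkn1a* probe at 4700 kBq against the other irradiated groups had -0.026 with slide block and -0.157 with array weights, and the second *Zmat3* probe had -0.031 (normexp) and -0.0088 (array weights) per unit of follicular score. Without single rats these signs also changed for *Btg2* at 4700 kBq (-0.798 to 0.430), for the *Gadd45a* trend (-0.014 to 0.011), and for these second probes of *Cdkn1a* (-0.111 to 0.116) and *Zmat3* (-0.016 to 0.026). Rat numbers did not pair the samples: deviations of same-numbered rats had a median r of -0.027 and a lowest of -0.709, so the replicate block rests on a shared number alone. *Plk3* and the second *Zmat3* probe were dim, which limits their small differences.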
